A study of Saccharomyces cerevisiae with 21 samples.

Results

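Yeast cells without *DOM34*, *SLH1* and *SKI2* held more of the short ribosome-protected fragments (RPFs) that lie at cut 3′ ends of a stalling reporter mRNA than cells without *SLH1* and *SKI2*, and more 21 and 28 nt RPFs upstream of the stall. The comparison is of 2 *slh1Δ dom34Δ ski2Δ* libraries with 2 *slh1Δ ski2Δ* libraries, 4 of the 21 samples of the series, chosen by the genotype in their labels. *SLH1* and *SKI2* are deleted in both strains, and *DOM34* is the gene that differs. All strains derive from BY4741 (*MATa his3Δ1 leu2Δ0 met15Δ0 ura3Δ0*) and carry the NGD-CGA reporter, integrated at *ADE2* and driven by the galactose-inducible *GAL1* promoter, which on its other side drives RFP. The *slh1Δ dom34Δ ski2Δ* strain is *dom34::KanMX4 ski2::KanMX4 slh1::NatMX4*, and the *slh1Δ ski2Δ* strain is *ski2::hphMX6 slh1::NatMX4*, so that the marker at *SKI2* differs as well. Cells grew in galactose and raffinose and were lysed with cycloheximide and tigecycline, which hold ribosomes in place, and the RNA was digested with RNase I. The same deletion where *SLH1* is present is given for comparison, as 2 *dom34Δ ski2Δ* libraries and the 1 *ski2Δ* library.

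No-go decay (NGD) removes mRNAs on which ribosomes stall and collide. An endonuclease cuts the mRNA within the collided ribosomes, and a ribosome upstream of the cut translates to the new 3′ end and stops there with no codon in its A site. Dom34, working with the GTPase Hbs1, enters that empty A site and splits the ribosome into its subunits, so cells without Dom34 keep ribosomes at cut ends. Slh1 is a helicase that takes collided ribosomes off mRNA, and Ski2 is the helicase of the Ski complex, which feeds the 5′ pieces of cut mRNA to the exosome. *DOM34* (YNL001W) lies on chromosome XIV of R64 from 627456 to 628616, *SLH1* (YGR271W) on chromosome VII from 1031791 to 1037694, and *SKI2* (YLR398C) on chromosome XII from 915156 to 919019.

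The size of an RPF reports the state of its ribosome. RPFs of 15 to 17 nt (16 nt RPFs) come from ribosomes whose mRNA ends inside them and are placed by their 3′ end. RPFs of 27 to 32 nt (28 nt RPFs) come from ribosomes with a filled A site, and those of 20 to 22 nt (21 nt RPFs) from ribosomes with an empty one. The study takes both as ribosomes on intact mRNA, but an RPF shows only that the mRNA was uncut within it. Both are placed by the A site. Values are in rpm, the reads at a position or in a stretch per 1000000 reads of the library. The reporter reads GFP, a 2A sequence, FLAG and *HIS3*, which encodes a histidine biosynthesis enzyme, and a tract of 12 CGA codons, on which ribosomes stall, lies between residues 92 and 93 of His3. Positions are counted in nt from the start of CGA codon 2, which is 0. The tract therefore runs from -3 to 32, and an end on the first nt of a codon is in frame 0. The *HIS3* part is written with other codons than the genomic gene, which it differs from at 49 of the 273 nt before the tract, and its positions are therefore given on the reporter alone.

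The stretch of the reporter on which the results turn runs from -120 to -4. It is shown as the deposited tables give it, with capitals at the 3′ ends of 16 nt RPFs at -114, -105, -93, -90, -84, -69, -42, -30, -27, -24 and -21. These are 9 of the 10 highest ends of *slh1Δ dom34Δ ski2Δ*, and -27 and -24. In the tract below it, capitals mark CGA codons 2 to 5.
Before the tract: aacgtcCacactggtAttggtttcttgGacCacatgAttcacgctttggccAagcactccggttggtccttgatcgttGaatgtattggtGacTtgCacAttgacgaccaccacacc
Tract: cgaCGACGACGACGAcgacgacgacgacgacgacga

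The 4 highest ends are shown with the 15 nt before them, which a 16 nt RPF protects, and with the codon at the end in capitals. The first capital is the 3′ end. They are shown because all 4 are in frame 0 and yet 3 different codons stand at the end.
End at -42: tggtccttgatcgttGAA
End at -21: attggtgacttgcacATT
End at -69: attcacgctttggccAAG
End at -105: aacgtccacactggtATT

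The 4 libraries held 12634641 and 9698106 reads in *slh1Δ dom34Δ ski2Δ*, and 10636068 and 9317090 reads in *slh1Δ ski2Δ*. Across the 14 monosome libraries used, the range was 1261876 to 15416759. The labels of *slh1Δ dom34Δ ski2Δ* replicate 2 give a fragment range of 40 to 80 nt, that of the disome libraries, while its title lacks their suffix and its table holds 16, 21 and 28 nt RPFs as in the 15 to 34 nt libraries. It was used as labelled by title, and the main results are given with and without it. Over the tract and the 300 nt before it (336 positions, the window), its 16 nt RPFs tracked those of replicate 1, with a Pearson r across positions of 0.96. For the 2 *slh1Δ ski2Δ* libraries this r was 0.83. The tables hold reads on the reporter only, so the deletions could not be checked in the reads. The labels do not say that replicates are separate cultures, and the p-values measure the spread between these libraries only.

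Over the window, 16 nt RPFs were 25.8 times as frequent without Dom34. They summed to 4961 and 5129.7 rpm in *slh1Δ dom34Δ ski2Δ*, against 287.5 and 103.1 rpm in *slh1Δ ski2Δ*. The groups were far apart, and the *slh1Δ ski2Δ* libraries also differed from each other, with replicate 1 above replicate 2 in most stretches. The mean was 5045 ± 119 rpm in *slh1Δ dom34Δ ski2Δ* and 195.3 ± 130.4 rpm in *slh1Δ ski2Δ* (SD, n = 2 each), from 49748 reads or more in each *slh1Δ dom34Δ ski2Δ* library and 961 or more in each *slh1Δ ski2Δ* library. On the log2(rpm + 1) scale the difference was 4.86. The two-sided exact permutation test gave p = 0.333, and 2 libraries against 2 can give none smaller. The difference was 4.10 between the libraries numbered 1 and 5.62 between those numbered 2, and 4.84 without *slh1Δ dom34Δ ski2Δ* replicate 2. The same limit holds for every comparison of sums and shares below.

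The share of 16 nt RPFs among all RPFs of the window does not depend on how much reporter mRNA a library held. It was 26.7% and 29.04% in *slh1Δ dom34Δ ski2Δ*, against 5.27% and 1.53% in *slh1Δ ski2Δ* (two-sided exact permutation test, p = 0.333). The 95% Wilson interval of the 29.04% was 28.8% to 29.3%, which covers counting error only and is narrower than the gap between the replicates. The groups did not overlap.

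**Figure D1:**
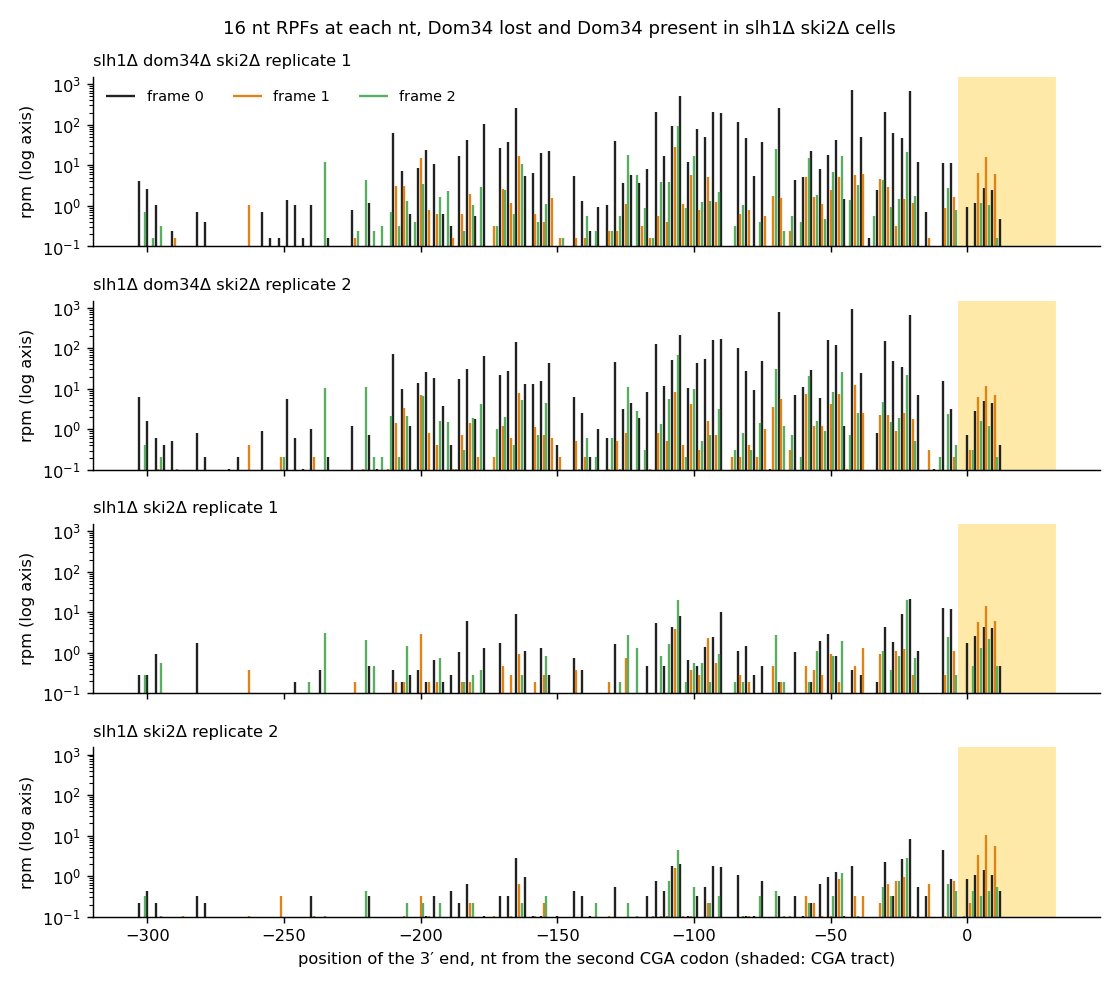
16 nt RPFs (rpm, log axis) by the position of their 3′ end in nt from the second CGA codon, 1 panel per library, coloured by reading frame, with the CGA tract shaded. The ends of *slh1Δ dom34Δ ski2Δ* stand in frame 0 from about -210 to -19, with the highest at -42 and -21, while the levels in the tract look alike in the 4 libraries.

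The rise lay upstream of the tract and was largest well behind the stall. From -240 to -31, 16 nt RPFs averaged 3963 ± 178 rpm in *slh1Δ dom34Δ ski2Δ* and 95.9 ± 71.1 rpm in *slh1Δ ski2Δ* (SD, n = 2 each), a ratio of 41.3. In bins of 30 nt the ratio was 86.4 at -60 to -31 and 74.4 at -90 to -61. Further back it was 28.9 at -120 to -91, 14.8 at -150 to -121, 35.02 at -180 to -151 and 21.8 at -210 to -181. In all of these bins both *slh1Δ dom34Δ ski2Δ* libraries were above both *slh1Δ ski2Δ* libraries. At the tract itself the groups overlapped. The tract held 38.6 and 42.3 rpm in *slh1Δ dom34Δ ski2Δ*, against 44.2 and 26.4 rpm in *slh1Δ ski2Δ*. The 15 nt just before it, -18 to -4, held 42.4 and 29.1 rpm in *slh1Δ dom34Δ ski2Δ*, against 30.6 and 8.69 rpm in *slh1Δ ski2Δ*, where the groups overlapped as well. At 20 of the 36 positions of the tract a read of this length occurs more than once and could not be placed.

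**Figure D2:**
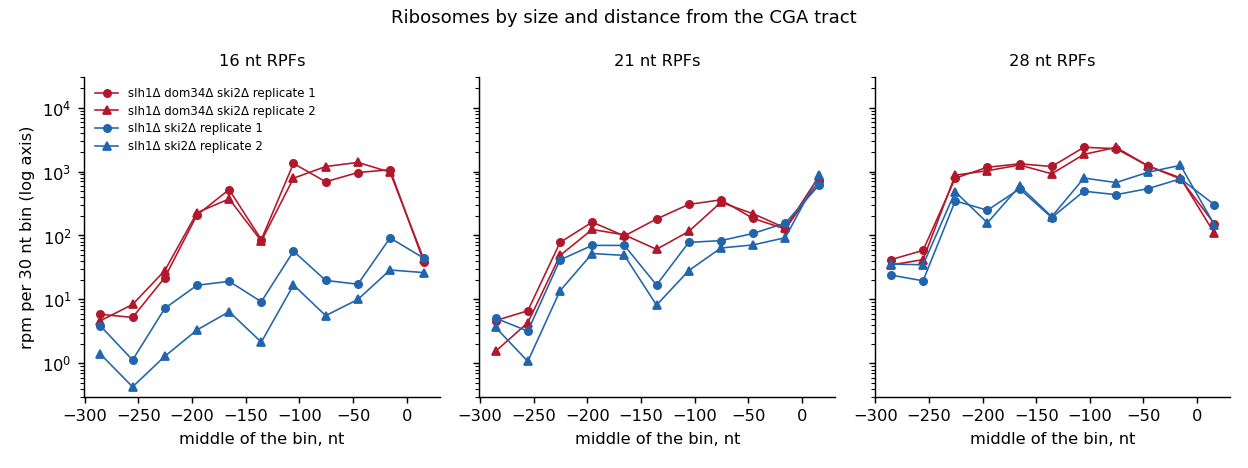
RPFs of 16, 21 and 28 nt (rpm per 30 nt bin, log axis) against the middle of the bin in nt from the second CGA codon, 1 line per library, *slh1Δ dom34Δ ski2Δ* in red and *slh1Δ ski2Δ* in blue. The lines separate by 86.4 times for 16 nt RPFs at -60 to -31 and by 1.60 times for 28 nt RPFs there. In the bin from 0 to 32 the groups overlap for all 3 sizes, and the ratio for 28 nt RPFs is 0.579.

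The ends that appeared were in frame. Of the 16 nt RPFs of the window, 90.3% and 91.6% had their 3′ end on the first nt of a codon in *slh1Δ dom34Δ ski2Δ*, against 53.6% and 50.8% in *slh1Δ ski2Δ* (two-sided exact permutation test, p = 0.333). The few highest ends do not carry this alone. Without the 3 highest nt of *slh1Δ dom34Δ ski2Δ*, the share in frame 0 was 85.4% and 84.2% in *slh1Δ dom34Δ ski2Δ*, against 49.9% and 45.1% in *slh1Δ ski2Δ*. In the tract, frame 1 led in all 4 libraries, with 59.8% to 74.8% of the RPFs. The 16 nt RPFs of the tract thus differed in frame from those that rose upstream. The frame of 28 nt RPFs, whose A sites fell mostly in frame 1, overlapped between the strains, at 65.3% and 72.1% in *slh1Δ dom34Δ ski2Δ* and 74.3% and 71.4% in *slh1Δ ski2Δ*.

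**Figure D3:**
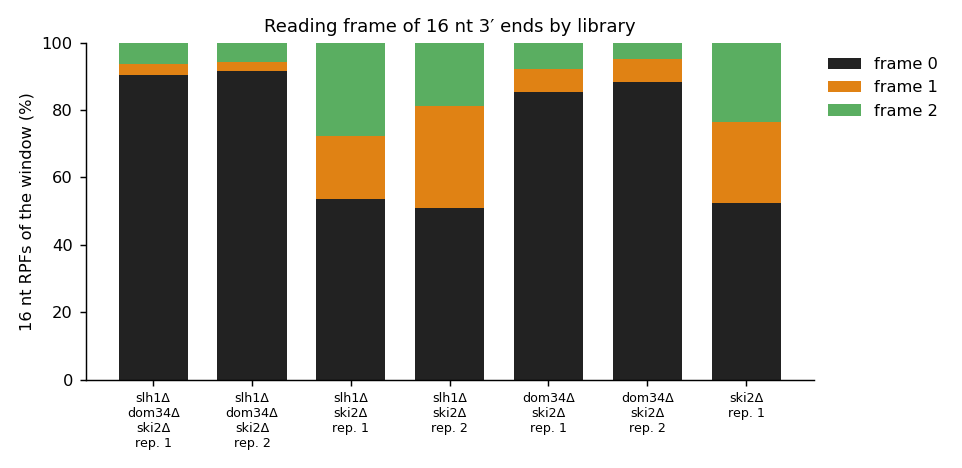
Reading frame of the 3′ ends of 16 nt RPFs in the window (%), 1 bar per library. Frame 0 holds 90.3% and 91.6% in *slh1Δ dom34Δ ski2Δ* and 85.4% and 88.3% in *dom34Δ ski2Δ*, and between 50.8% and 53.6% in the libraries with *DOM34*.

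The 10 highest ends of *slh1Δ dom34Δ ski2Δ* were all in frame 0, and held 67.5% and 68.8% of its 16 nt RPFs in replicates 1 and 2 when ranked in each library, against 47.8% and 45.99% for the 10 highest of each *slh1Δ ski2Δ* library. The 2 *slh1Δ dom34Δ ski2Δ* libraries shared 9 of their 10 highest ends, and each shared 3 or 4 with a *slh1Δ ski2Δ* library. Each also shared 7 with each *dom34Δ ski2Δ* library, so most of these ends were high without Dom34 where *SLH1* is present as well. The ends described next were chosen for their level in *slh1Δ dom34Δ ski2Δ*, so that their high values there are a description.

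The highest end lay at -42, on the GAA codon of glutamate 80 of His3, whose sequence is shown above. It held 734.5 and 926.3 rpm in *slh1Δ dom34Δ ski2Δ*, against 0.38 and 1.82 rpm in *slh1Δ ski2Δ*, where these values stand for 4 and 17 reads. It thus ranked first in both libraries without Dom34 and was barely seen with it. The end at -21, on the ATT codon of isoleucine 87, held 683 and 678 rpm in *slh1Δ dom34Δ ski2Δ*, against 20.7 and 8.48 rpm in *slh1Δ ski2Δ*. It was also the highest end of *slh1Δ ski2Δ* by the mean of its libraries.

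The end at -69, on the AAG codon of lysine 71, varied most between replicates, with 255.5 and 785.8 rpm in *slh1Δ dom34Δ ski2Δ*, against 0.19 and 0.32 rpm in *slh1Δ ski2Δ* from 2 and 3 reads. The end at -105, on the ATT codon of isoleucine 59, varied the other way, with 499.9 and 209 rpm in *slh1Δ dom34Δ ski2Δ*, against 7.99 and 2.04 rpm in *slh1Δ ski2Δ*. So the order of the ends ranked below -42 differed between the replicates, with -21 second in replicate 1 and -69 second in replicate 2, although neither -69 nor -105 overlapped with *slh1Δ ski2Δ*. The other 6, at -165, -93, -90, -30, -114 and -84, lay between 98.9 and 255.7 rpm in each *slh1Δ dom34Δ ski2Δ* library and between 0.75 and 10.3 rpm in each *slh1Δ ski2Δ* library.

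Of the 5 highest ends of *slh1Δ ski2Δ*, -21 and -106 stood clearly higher without Dom34 in both libraries, -22 barely did, and at 7 and -9 the groups overlapped. The end at -106, in frame 2 of a glycine codon, held 92.5 and 68.6 rpm in *slh1Δ dom34Δ ski2Δ*, against 20.2 and 4.51 rpm in *slh1Δ ski2Δ*. The end at 7, on CGA codon 4 in frame 1, held 15.8 and 11.8 rpm in *slh1Δ dom34Δ ski2Δ*, against 14.4 and 10.5 rpm in *slh1Δ ski2Δ*, with levels alike in the strains. At -9 it was 11.7 and 15.2 rpm in *slh1Δ dom34Δ ski2Δ*, against 13.1 and 4.40 rpm in *slh1Δ ski2Δ*. The end at -22 held 21.6 and 22.5 rpm in *slh1Δ dom34Δ ski2Δ*, against 20.4 and 2.79 rpm in *slh1Δ ski2Δ*, where replicate 1 came close to both *slh1Δ dom34Δ ski2Δ* libraries.

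Summed per codon, 16 nt RPFs were compared over the whole reporter with limma, on log2(rpm + 0.1), for the 130 of 528 codons with a mean of at least 0.5 rpm over the 14 libraries. Of these, 89 were higher in *slh1Δ dom34Δ ski2Δ* at an adjusted p under 0.05, which is 68.5% of the codons tested, and 0 were lower (90 differed at an unadjusted p under 0.05, and edgeR called 86, all higher). By position, all 51 codons tested between -240 and -31 were higher, with a median log2 difference of 4.71, as were all 4 at -30 to -19. Further toward the stall, 1 of 3 rose at -18 to -4 and 0 of 4 in the tract. The filter let 21 of the 130 codons through only by their level in *slh1Δ dom34Δ ski2Δ*, and of the other 109, 68 were called. The counts and medians by stretch, here and below, are over the 130 codons and were not repeated over the 109. They may thus include codons let in because they were high in *slh1Δ dom34Δ ski2Δ*. Without *slh1Δ dom34Δ ski2Δ* replicate 2, 73 of 126 codons were called, all higher.

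**Figure D4:**
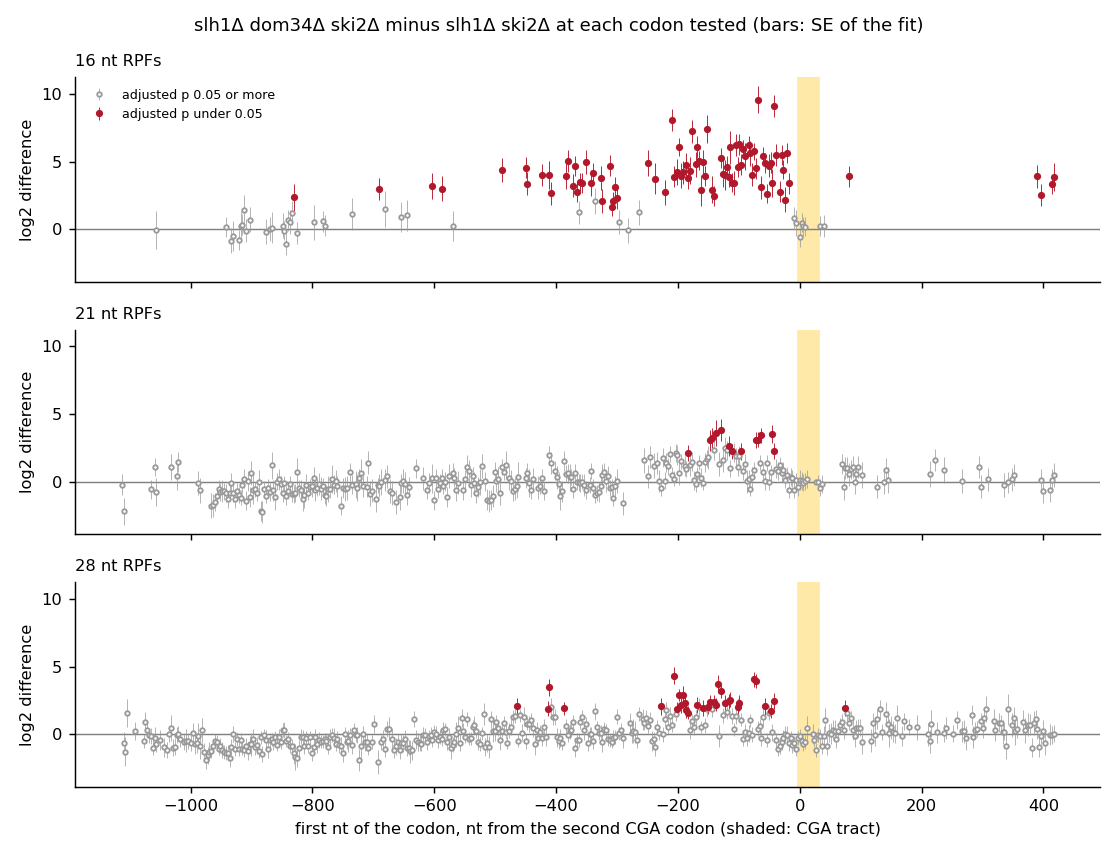
Log2 difference of *slh1Δ dom34Δ ski2Δ* minus *slh1Δ ski2Δ* for each codon tested (points, with bars for the standard error of the limma fit), by position in nt and for each RPF size, red where the adjusted p was under 0.05. The 89 codons called for 16 nt RPFs reach 9.57 at -69, the 13 called for 21 nt RPFs lie between -183 and -42, and 27 of the 32 called for 28 nt RPFs lie between -240 and -31.

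The largest rises fell on codons that were nearly empty where Dom34 was present. At codon -69 the log2 difference was 9.57 (SE 0.97, limma, adjusted p = 2.31e-06) and at codon -42 it was 9.13 (SE 0.81, limma, adjusted p = 1.16e-06). The next 3 were further back. Codon -210, AAG of lysine 24, held 65.1 and 75.8 rpm in *slh1Δ dom34Δ ski2Δ*, against 0.56 and 0 rpm in *slh1Δ ski2Δ*. Codon -153, GTT of valine 43, held 24.4 and 43.6 rpm in *slh1Δ dom34Δ ski2Δ*, against 0.28 and 0 rpm in *slh1Δ ski2Δ*. Codon -177, TTC of phenylalanine 35, held 105.6 and 63.0 rpm in *slh1Δ dom34Δ ski2Δ*, against 1.32 and 0.11 rpm in *slh1Δ ski2Δ*. All 3 were called, and the size of such differences depends on the 0.1 rpm added before taking logs.

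The cut ends differed in their codon. Of the 10 highest ends, 7 had A as the second base of the codon at the end, 3 had T, and 0 had C or G. Of the 70 codons from -240 to -31, 22 had A in this place, 22 T, 18 C and 8 G. The 16 nt RPFs in frame 0 of this stretch were on codons with a second A for 61.1% and 68.7% in *slh1Δ dom34Δ ski2Δ*, against 47.5% and 45.7% in *slh1Δ ski2Δ*. For codons with a second C the shares were 3.601% and 3.49% in *slh1Δ dom34Δ ski2Δ*, against 19.2% and 15.5% in *slh1Δ ski2Δ*. The groups did not overlap in either share. The ends at -42 and -69, both with a second A, held 734.5 and 926.3 rpm and 255.5 and 785.8 rpm in *slh1Δ dom34Δ ski2Δ*. All its 16 nt RPFs of this stretch came to 3838 and 4089 rpm. The share with a second A thus rested in good part on these ends, and was not computed without them. Its gap between the groups can therefore not be read as a trait of codons with a second A in general. Per codon, the median level in *slh1Δ dom34Δ ski2Δ* was 22.003 and 19.7 rpm with A, 9.70 and 10.98 rpm with G, 7.00 and 6.34 rpm with T, and 2.81 and 4.33 rpm with C. The levels ranged widely within each class, from 0 to 926.3 rpm with A, and the codons of 1 reporter are a single sequence context. By the medians above, the bases differed in how high an end stood. Among the codons tested, 29 of 45 with a second A were called, 31 of 37 with T, 19 of 28 with C and 10 of 20 with G, which was not tested further.

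CGA codons 2 to 5, where lead ribosomes stall, have a ribosome that collides with them from behind 30 nt upstream, at -30, -27, -24 and -21. The 12 nt from -30 to -19, which hold these 4 ends, had 1026 and 949.7 rpm of 16 nt RPFs in *slh1Δ dom34Δ ski2Δ*, against 61.1 and 20.1 rpm in *slh1Δ ski2Δ*. The groups lay 4.77 apart on the log2 scale (p = 0.333 by the two-sided exact permutation test), and 96.9% and 96.4% of these RPFs were in frame 0 in *slh1Δ dom34Δ ski2Δ*. There, 63.3% and 60.2% of all RPFs were 16 nt in *slh1Δ dom34Δ ski2Δ*, against 10.4% and 2.49% in *slh1Δ ski2Δ*.

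Within this group of ends, -21 stood far above the others. The end at -30 held 201.7 and 154.1 rpm in *slh1Δ dom34Δ ski2Δ*, against 4.42 and 2.25 rpm in *slh1Δ ski2Δ*. The end at -27 held 61.7 and 49.5 rpm in *slh1Δ dom34Δ ski2Δ*, against 1.88 and 0.32 rpm in *slh1Δ ski2Δ*. The end at -24 held 48.2 and 34.2 rpm in *slh1Δ dom34Δ ski2Δ*, against 9.03 and 2.68 rpm in *slh1Δ ski2Δ*. With the values of -21 given above, the levels in *slh1Δ dom34Δ ski2Δ* became smaller step by step over -30, -27 and -24, and were highest at -21. All 4 codons were called, at log2 differences of 5.47 (SE 0.72), 4.39, 2.20 and 5.63 (SE 0.76), with limma adjusted p from 1.58e-05 to 0.0433. The highest p was that of codon -24, whose call was lost with edgeR (adjusted p = 0.0739).

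Where *SLH1* is present, the loss of Dom34 gave another order of the same ends. The end at -30 was highest, with 134.9 and 166.9 rpm in *dom34Δ ski2Δ*, against 1.74 rpm in *ski2Δ*. The end at -27 held 58.8 and 87.7 rpm in *dom34Δ ski2Δ*, against 1.16 rpm in *ski2Δ*. Both ends were nearly empty in *ski2Δ*. The end at -24 held 46.1 and 40.9 rpm in *dom34Δ ski2Δ*, against 11.7 rpm in *ski2Δ*. The end at -21 held 24.4 and 21.1 rpm in *dom34Δ ski2Δ*, against 19.1 rpm in *ski2Δ*, where the *ski2Δ* library lay close to both. The levels at -30, -27 and -24 in *slh1Δ dom34Δ ski2Δ* were thus near those of *dom34Δ ski2Δ*, and at -21 they were not.

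The difference between the 2 effects of losing Dom34 was tested in the same limma fit, in which the single *ski2Δ* library was assumed to vary like the others. At codon -21 the effect was larger without *SLH1* by 5.47 on the log2 scale (SE 1.20, limma, adjusted p = 0.0118). The adjusted p ranged from 0.00108 to 0.0567 over the alternatives, with the highest without *slh1Δ dom34Δ ski2Δ* replicate 2. At codon -30 the difference was -0.30 (SE 1.15, limma, adjusted p = 0.817), at codon -27 it was -0.29 (adjusted p = 0.817) and at codon -24 it was 1.53 (adjusted p = 0.406). With standard errors of this size, a difference of severalfold at these 3 codons was not detectable.

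**Figure D5:**
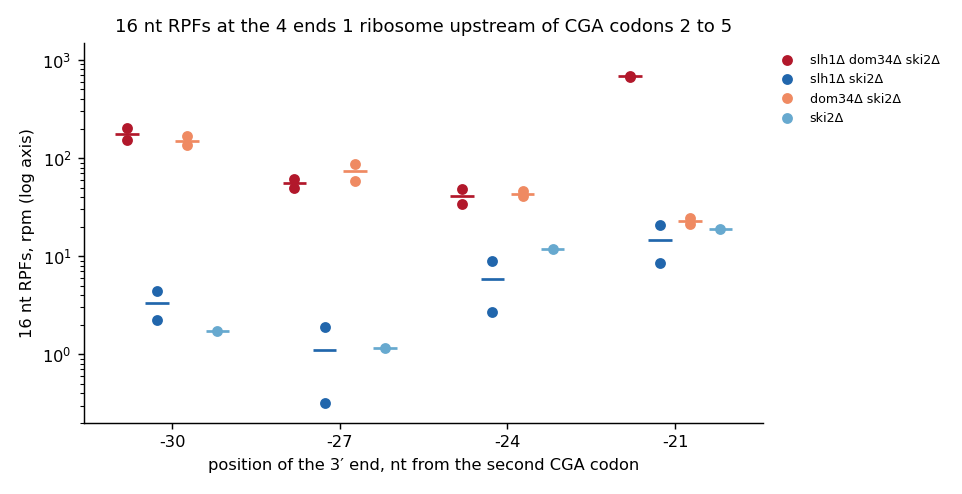
16 nt RPFs (rpm, log axis) with 3′ ends at -30, -27, -24 and -21, for *slh1Δ dom34Δ ski2Δ*, *slh1Δ ski2Δ*, *dom34Δ ski2Δ* and *ski2Δ*, 1 point per library and a line at the mean. At -30 the 2 strains without *DOM34* lie between 134.9 and 201.7 rpm, and at -21 *slh1Δ dom34Δ ski2Δ* stands at 683 and 678 rpm, with the other strains between 8.48 and 24.4 rpm.

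Over all codons, 43 of 130 had a larger effect of losing Dom34 where *SLH1* was deleted, 33.1% of those tested, and 0 had a smaller one (59 differed at an unadjusted p under 0.05, and edgeR called 37, all larger). From -240 to -31, 16 nt RPFs were higher without Dom34 with *SLH1* present as well. They came to 276.8 and 232.9 rpm in *dom34Δ ski2Δ*, against 77.2 rpm in *ski2Δ*. The codons tested there had a median log2 difference of 1.11 between these strains. Of the 43, 27 lay among the 51 tested in this stretch. The filter let 21 of the 130 codons through only by their level in *slh1Δ dom34Δ ski2Δ*, and the 43 were not recounted over the other 109. The count rested on single libraries, and fell to 1 without *slh1Δ dom34Δ ski2Δ* replicate 2, 8 without its replicate 1 and 5 without *dom34Δ ski2Δ* replicate 2. Of the window total of 16 nt RPFs, -30 to -19 held 20.7% and 18.5% in *slh1Δ dom34Δ ski2Δ*, and 46.5% and 54.3% in *dom34Δ ski2Δ*. It held 21.3% and 19.5% in *slh1Δ ski2Δ*, and 28.7% in *ski2Δ*.

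Ribosomes with 21 and 28 nt RPFs also rose behind the stall. The 21 and 28 nt RPFs of the window together averaged 13078 ± 766 rpm in *slh1Δ dom34Δ ski2Δ* and 5893 ± 1031 rpm in *slh1Δ ski2Δ* (SD, n = 2 each). The log2 difference was 1.16, with 1.40 between the libraries numbered 1 and 0.92 between those numbered 2 (two-sided exact permutation test, p = 0.333). It was thus 2.22 times, against the 25.8 times of 16 nt RPFs. Where *SLH1* is present, they averaged 4774 ± 220 rpm in *dom34Δ ski2Δ* (SD, n = 2) and were 3899 rpm in *ski2Δ*, a log2 difference of 0.29.

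The rise in 28 nt RPFs began 30 nt behind the tract. From -240 to -31 they averaged 9972 ± 572 rpm in *slh1Δ dom34Δ ski2Δ* and 3334 ± 766 rpm in *slh1Δ ski2Δ* (SD, n = 2 each), 2.99 times. In bins the ratio was highest at -150 to -121 (5.47) and at -210 to -181 (5.41), and was 1.60 at -60 to -31. At -30 to -19, where ribosomes stack directly behind the lead ribosome, the groups overlapped, with 532.8 and 559.0 rpm in *slh1Δ dom34Δ ski2Δ* and 455.0 and 759.2 rpm in *slh1Δ ski2Δ*. From -18 to -4 they were lower, at 191.7 and 205.6 rpm in *slh1Δ dom34Δ ski2Δ*, against 283.8 and 434.7 rpm in *slh1Δ ski2Δ*, a log2 difference of -0.82 (two-sided exact permutation test, p = 0.333). None of the 5 codons there was called. In the tract, 28 nt RPFs were also lower, at 196.3 and 140.03 rpm in *slh1Δ dom34Δ ski2Δ*, against 337.4 and 206.7 rpm in *slh1Δ ski2Δ*, a log2 difference of -0.67 (two-sided exact permutation test, p = 0.333). None of the 10 codons tested in the tract was called. From 0 to 32, which leaves out CGA codon 1, the groups overlapped. The sums there were 152.7 and 108.9 rpm in *slh1Δ dom34Δ ski2Δ*, against 304.3 and 147.8 rpm in *slh1Δ ski2Δ*.

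Of the 446 codons tested for 28 nt RPFs, 32 were higher, 7.17%, and 0 lower (79 differed at an unadjusted p under 0.05, and edgeR called 28, all higher). Of the 32, 27 were among the 70 codons from -240 to -31, 4 lay more than 300 nt upstream of the tract and 1 downstream of the tract. The count fell to 7 without *slh1Δ dom34Δ ski2Δ* replicate 1 and to 12 without its replicate 2. Codon -72, GCC of alanine, was the highest of those called, with 1288 and 1410.2 rpm in *slh1Δ dom34Δ ski2Δ*, against 67.9 and 114.0 rpm in *slh1Δ ski2Δ* (log2 difference 3.94, SE 0.53, limma, adjusted p = 3.57e-05). Its neighbour at -75, TTG of leucine, held 520.7 and 403.9 rpm in *slh1Δ dom34Δ ski2Δ*, against 23.5 and 31.4 rpm in *slh1Δ ski2Δ*. A ribosome with its A site at -72 lies 30 nt behind a 3′ end at -42, the highest end of the strain.

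At codon -207, GGT of glycine, 28 nt RPFs came to 489.3 and 376.7 rpm in *slh1Δ dom34Δ ski2Δ*, against 47.7 and 9.55 rpm in *slh1Δ ski2Δ*. This was the largest rise of this size class, at 4.32 on the log2 scale (SE 0.63, limma, adjusted p = 8.11e-05). After -75 and -72, the next largest was at codon -135, with 46.6 and 30.7 rpm in *slh1Δ dom34Δ ski2Δ*, against 1.41 and 5.37 rpm in *slh1Δ ski2Δ*. The highest 28 nt position within 20 to 40 nt behind an end lay exactly 29 nt behind it for 2 of the 10 highest ends in each *slh1Δ dom34Δ ski2Δ* library, -42 and -165. In *slh1Δ ski2Δ* it did so for 3 of the same 10 ends in replicate 1 and for 1 in replicate 2. At -71, 29 nt behind the end at -42, 28 nt RPFs stood at 683.2 and 877.1 rpm in *slh1Δ dom34Δ ski2Δ*, against 43.8 and 60.96 rpm in *slh1Δ ski2Δ*. For the other 8 ends in *slh1Δ dom34Δ ski2Δ* the highest position stood at other distances, so that no single spacing held for all.

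The 21 nt RPFs, from ribosomes with an empty A site, were higher over the same stretch and overlapped between the strains at the stall. From -240 to -31 they averaged 1187 ± 262 rpm in *slh1Δ dom34Δ ski2Δ* and 377 ± 128 rpm in *slh1Δ ski2Δ* (SD, n = 2 each), 3.15 times. On CGA codons 2 to 5, the site of the lead ribosome, they came to 515.6 and 583.0 rpm in *slh1Δ dom34Δ ski2Δ*, within the 425.1 and 655.0 rpm of *slh1Δ ski2Δ*. Their log2 difference there was 0.06, with p = 1 in the two-sided exact permutation test. Of the 323 codons tested, 13 were higher, 4.02%, and 0 lower (41 differed at an unadjusted p under 0.05, and edgeR called 15, all higher). All 13 lay from -240 to -31. Of them 11 were also among the 89 called for 16 nt RPFs, which hold 51 of the 70 codons of that stretch.

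Codon -63, TCC of serine, held 167.4 and 107.1 rpm of 21 nt RPFs in *slh1Δ dom34Δ ski2Δ*, against 14.1 and 10.7 rpm in *slh1Δ ski2Δ* (log2 difference 3.43, SE 0.55, limma, adjusted p = 0.000493). Codon -129, CAA of glutamine, had the largest rise of the 13, with 138.5 and 30.006 rpm in *slh1Δ dom34Δ ski2Δ*, against 9.40 and 2.15 rpm in *slh1Δ ski2Δ*. The replicates differed severalfold there, and the groups did not overlap. Codons -138, -45 and -144 followed, of which -138 was listed at 0 in both *slh1Δ ski2Δ* libraries. The count of 13 fell to 1 without *slh1Δ ski2Δ* replicate 2 and to 3 without *slh1Δ dom34Δ ski2Δ* replicate 1.

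Ends also rose further upstream, past *HIS3* and FLAG in the 2A and GFP parts. More than 300 nt upstream of the tract, 16 nt RPFs summed to 197.9 and 199.9 rpm in *slh1Δ dom34Δ ski2Δ*, against 82.0 and 29.1 rpm in *slh1Δ ski2Δ*, a log2 difference of 2.0005 (two-sided exact permutation test, p = 0.333). Most of it lay nearest the window. At -404 to -305 the sums were 111.2 and 106.0 rpm in *slh1Δ dom34Δ ski2Δ*, against 13.5 and 5.90 rpm in *slh1Δ ski2Δ*, and 15 of the 17 codons tested there were higher. At -504 to -405 they were 26.99 and 30.4 rpm in *slh1Δ dom34Δ ski2Δ*, against 5.17 and 1.72 rpm in *slh1Δ ski2Δ*, with 6 of 6 codons higher. Upstream of -704 the groups overlapped in each 100 nt. The highest ends there were at -381, -360 and -342, again in frame 0, with 13.5 and 13.9 rpm at -381 in *slh1Δ dom34Δ ski2Δ*, against 0.28 and 0 rpm in *slh1Δ ski2Δ*. In this part 77.3% and 78.0% of 16 nt RPFs were in frame 0 in *slh1Δ dom34Δ ski2Δ*, against 49.4% and 37.6% in *slh1Δ ski2Δ*.

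The 21 and 28 nt RPFs of this upstream part, which serve as a gauge of how much translated reporter a library holds, were 1856 ± 199 rpm in *slh1Δ dom34Δ ski2Δ* and 2194 ± 262 rpm in *slh1Δ ski2Δ* (SD, n = 2 each). Their log2 difference was -0.24, so that dividing by them raised each difference by about this much. Expressed this way, the 16 nt difference over the window was 5.10.

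Downstream of the tract there were few 16 nt RPFs, and their sum was higher too. All 16 nt RPFs there averaged 34.1 ± 1.76 rpm in *slh1Δ dom34Δ ski2Δ* and 7.99 ± 3.86 rpm in *slh1Δ ski2Δ* (SD, n = 2 each), 4.27 times, and 5 of the 7 codons tested were higher, between codons 81 and 417. The highest were at 390, on GTT of valine 212, with 3.09 and 1.03 rpm in *slh1Δ dom34Δ ski2Δ* and 0 and 0 rpm in *slh1Δ ski2Δ*, and at 418, in the stop codon, with 2.93 and 0.93 rpm in *slh1Δ dom34Δ ski2Δ* and 0 and 0 rpm in *slh1Δ ski2Δ*. At 34, the third of the highest, the groups overlapped, with 0.87 and 2.68 rpm in *slh1Δ dom34Δ ski2Δ* and 1.32 and 1.07 rpm in *slh1Δ ski2Δ*. A count of 0 allows up to 0.282 and 0.322 rpm in the *slh1Δ ski2Δ* libraries (3 reads). In the strains with *SLH1*, all 16 nt RPFs downstream of the tract came to 19.1 and 19.2 rpm in *dom34Δ ski2Δ*. The *ski2Δ* library held 0.07 rpm there, from 1 read. The log2 difference of these sums was 4.23 with *SLH1* and 2.04 without it. Ribosomes on intact mRNA in the first 100 nt after the tract came to 116.2 ± 11.04 rpm in *slh1Δ dom34Δ ski2Δ* and 83.7 ± 11.7 rpm in *slh1Δ ski2Δ* (SD, n = 2 each), a log2 difference of 0.47 (two-sided exact permutation test, p = 0.333).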

How the data were processed

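Monosome footprints on the NGD-CGA reporter were used from 7 libraries of 4 strains, and 7 libraries of 4 other strains entered the codon fit only. The authors processed the reads with CASAVA 1.8 and STAR and deposited, for each nt, RPM values (reads per 1000000) of 16, 21 and 28 nt RPFs. All values of the libraries used were whole multiples of what 1 read is worth (within 0.1 reads), which gave the depths printed. Of 57 value columns 15 were not used, 6 of which match no sample, and 250 empty lines were dropped.

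Sums over stretches, as log2(rpm + 1), and shares were compared by permuting the libraries (exact and two-sided). Codon sums with a mean of at least 0.5 rpm over the 14 libraries were tested on log2(rpm + 0.1) with limma 3.58.1 in R 4.3.3, with 1 mean per strain and Benjamini-Hochberg adjustment over all codons tested (threshold 0.05), a method tested on simulated data. Alternatives were edgeR 4.0.16 on the recovered reads, other pseudocounts, no filter, scaling per reporter (dividing by intact-mRNA RPFs upstream of the window), a replicate block, fewer strains and leaving out each library. Sums and shares were computed in Python 3.11.15 with scipy 1.17.1.

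Named positions are the highest 16 nt ends of each stretch (10 in the window for *slh1Δ dom34Δ ski2Δ*, 5 for *slh1Δ ski2Δ*, 3 upstream and 3 downstream), the ends at -30 to -21, CGA codons 2 to 5 and the 5 codons of largest change in each size class. Members and lists were chosen with earlier results of these data known. Gene positions are those of R64.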

Additional observations from a re-analysis of the deposited data

Results flagged for a closer look

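The effects of losing Dom34 in cells without and with *SLH1* differed in several places. For 16 nt RPFs, the effect was larger in *slh1Δ* cells at 43 of the 130 codons in the limma fit, with the limit of the filter given above. Among the sums, the 4 below had opposite signs before any division by reporter level, with no overlap between the strains in either case. In these the difference between the effects was not tested, and the effect with *SLH1* rests on 1 *ski2Δ* library. That library also held more translated reporter by the gauge above, the 21 and 28 nt RPFs upstream of the window. They came to 2514 and 2314 rpm in *dom34Δ ski2Δ*, against 3257 rpm in *ski2Δ*, a log2 difference of -0.43. The sums below were not divided by this gauge.

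More than 300 nt upstream of the tract, the log2 difference of 16 nt RPFs was 2.0005 for *slh1Δ dom34Δ ski2Δ* minus *slh1Δ ski2Δ* and -0.89 for *dom34Δ ski2Δ* minus *ski2Δ*. There, *dom34Δ ski2Δ* held 75.03 and 58.7 rpm, against 123.5 rpm in *ski2Δ*.

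For 21 nt RPFs in the window it was 0.74 without *SLH1* and -0.42 with it, and the -0.42 is close to the -0.43 of the gauge itself. For those upstream of -30, which are part of the window, it was 1.66 without *SLH1* and -0.56 with it. Whether the signs still differ after division by the gauge was not tested.

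For 28 nt RPFs at -18 to -4, just before the tract, the signs were turned, at -0.82 without *SLH1* and 0.60 with it. There, *dom34Δ ski2Δ* held 120.6 and 198.1 rpm, against 101.7 rpm in *ski2Δ*.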

How the results depend on the processing

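Of the comparisons of sums, shares and counts, 93 values under other settings kept direction and size, 16 moved a count by over 1.5 times and 4 turned the sign of a sum. These settings were run for 8 sums, 2 shares and 4 counts of codons. Of these, the sums of 16 nt RPFs over the window, upstream of -30, at -30 to -19 and over the tract with all downstream, the sums of 21 and 28 nt RPFs over the window and after the tract, and both shares kept their sign. The count of 16 nt codons called (89) stayed between 70 and 108, the highest without the filter, where 2 codons were lower. The cause of the changes below was not tested.

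In the other 2 sums the groups overlap. For 21 nt RPFs on CGA codons 2 to 5 the log2 difference ran between -0.26 and 0.37 when 1 library was left out, and for 28 nt RPFs at -30 to -19 between -0.48 and 0.26, and it was 0.13 per reporter. Counts of codons called depended on single libraries. For 21 nt RPFs it was 20 per reporter and 1 to 21 with a library left out, and for 28 nt RPFs 52 per reporter, 12 with only the 4 libraries compared and 7 to 33 with a library left out. Codons with a larger effect in *slh1Δ* cells came to 72 with 1 rpm added, 5 with no filter, 15 per reporter, and 1 to 61 with a library left out.

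The 16 nt sum over the tract alone, 0.23 on the log2 scale, was not among them, and was -0.19 between the libraries numbered 1 and 0.66 between those numbered 2. Codons of the tract, where no call was made, also changed sign. With a library left out, 16 nt RPFs ran from -0.0036 to 0.99 at codon 3, -0.16 to 0.60 at codon 6 and -0.076 to 0.49 at codon 9. For 21 nt RPFs the ranges were -0.042 to 0.37 at codon 0, -0.50 to 0.63 at codon 3, -0.22 to 0.12 at codon 6 and -0.14 to 0.22 at codon 9, with -0.038 at codon 3 in edgeR and 0.19 at codon 6 per reporter. For 28 nt RPFs at codon 0 the range was -0.37 to 0.18, with 0.15 per reporter. At codon -27, the difference between the effects without and with *SLH1* ran from -0.81 to 0.23.

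Replicate numbers are shared between the strains, but the labels do not say that a number marks a shared batch. Deviations of same-numbered libraries correlated weakly across codons (r = 0.16 to 0.21, 2 pairs). With the replicate block 89 codons were called for 16 nt RPFs, 18 for 21 nt RPFs, 32 for 28 nt RPFs and 43 for the effects without and with *SLH1*. For the sums, the paired test cannot go below p = 0.5 (exact permutation over 2 pairs), and it gave 0.5 for the window sum of 16 nt RPFs (4.86).

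The precision at cut ends is limited by *slh1Δ ski2Δ*, whose 16 nt RPFs in the window came to 961 reads in replicate 2, and by 2 libraries per strain. A count of 0 allows up to 0.237 and 0.309 rpm in *slh1Δ dom34Δ ski2Δ* and up to 0.282 and 0.322 rpm in *slh1Δ ski2Δ*.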
